A study of Mus musculus with 7 samples.

Results

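The transcripts described here encode 7 members of the Slc22 family of organic ion transporters, Slc22a5, Slc22a7, Slc22a18, Slc22a23, Slc22a27, Slc22a28 and Slc22a30, out of 12151 genes with values in isolated mouse hepatocytes. They were picked by symbol from the 13 Slc22 genes of the table, and the choice was made with the levels in ALAS1/2-KO and WT libraries in view. The members were thus selected on the same comparison that is described below, so their group differences are given as a description with no p-value, and nothing is read from whether a member passed a threshold. There were 3 WT libraries, with no treatment label beyond "non", and 4 libraries labelled ALAS1/2-KO and tamoxifen. ALAS1 and ALAS2 are isoenzymes that start heme synthesis. Per the series' design text, a Cre-inducible mouse allele removes Alas1 exons 4 to 5, and Alas2 is further lowered by injected siRNAs carrying GalNAc, a sugar that hepatocytes take up. The driver of Cre, the age and sex of the mice, and whether WT mice carried the allele or received Cre, tamoxifen or a control siRNA is not stated in the labels, so the effects of allele, tamoxifen and siRNA cannot be told apart. Nothing in the labels says that the libraries came from separate mice. The p-values set a group difference only against the scatter among these libraries, and that scatter may be technical.

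SLC22 proteins are membrane carriers for charged small molecules. The organic cation transporters take up drugs and metabolic amines, the OCTN branch carries zwitterions such as carnitine, and the organic anion transporters carry drugs, nucleotides, steroid conjugates and dicarboxylates. In liver they sit mostly on the blood-facing side of the hepatocyte and supply substrates for metabolism and biliary excretion.

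The WT libraries held 22916097 to 34048680 reads over the listed genes and the ALAS1/2-KO libraries 27933939 to 30195635. In the deposited values, 1 read was worth 0.0293 to 0.0522 CPM (reads per 1000000 of a scaled library size). That size was not the number of listed reads. CPM over the listed genes summed to 1196063, 1249046 and 997001 in WT replicates 1 to 3, and to 844653 to 935374 in ALAS1/2-KO. The deposited CPM thus carry a scaling that differed between the groups, and its origin was not tested. Mitochondrial transcripts took 31.9% to 43.2% of the listed reads in WT and 16.8% to 27.3% in ALAS1/2-KO. Alas2 stood at 16.9, 10.3 and 6.65 CPM in WT replicates 1 to 3 and between 0.198 and 0.800 CPM in ALAS1/2-KO. ALAS2 is the erythroid isoenzyme, and the 4 erythroid markers with values (of 6 listed) summed to 11.3 to 41.3 CPM in WT and to 2.75 to 7.39 CPM in ALAS1/2-KO, with none at 0, and their part in the level of Alas2 was not tested. Alas1 stood at 280, 265 and 83.5 CPM in WT and between 287 and 361 CPM in ALAS1/2-KO, and a value for the whole gene does not check the loss of a pair of exons. The 9 hepatocyte markers with values (of 10 listed) summed to 122336 to 128997 CPM in WT and 81450 to 87593 CPM in ALAS1/2-KO. Such a sum follows its most abundant genes, and Alb alone took 7.86% to 9.98% of the listed reads in WT and 5.41% to 6.63% in ALAS1/2-KO. The median log2 difference of the 9 was 0.20, and without overlap between the groups 3 were higher and 1 lower (22.7% of all genes tested had no overlap). The 29 markers of endothelial, Kupffer, stellate, biliary and lymphoid cells with values (of 37 listed) summed to 1104 to 1574 CPM in WT and to 287, 778, 1637 and 1442 CPM in ALAS1/2-KO replicates 1 to 4, with none at 0 in any library. ALAS1/2-KO replicates 1 and 2 thus had the lowest sums. Kupffer markers made up most of the sum (1151 of 1637 CPM in ALAS1/2-KO replicate 3). The 2 biliary markers with values did not follow it, at 2.72, 5.35, 3.97 and 3.89 CPM in ALAS1/2-KO replicates 1 to 4. By class, median log2 differences were -0.96 for endothelial, -0.46 for Kupffer, -1.29 for stellate, -1.48 for biliary and -0.93 for lymphoid markers. The part of other cell types in any result below was not tested. In bulk RNA, fewer cells of a type and less RNA per cell cannot be told apart.

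Slc22a27, Slc22a28 and Slc22a30 are organic anion transporters of a rodent gene group on chromosome 19, and their near-identity bears on every value given for them. In GENCODE M21 (mm10), a span of 732 kb on that chromosome held 6 protein-coding genes, all of them Slc22 genes on the minus strand. They are Slc22a30 (ENSMUSG00000052562.15, 8335371 to 8405111), Slc22a29, Slc22a28 (ENSMUSG00000063590.3, 8062209 to 8131982), Slc22a27 (ENSMUSG00000067656.13, 7864388 to 7966027), Slc22a26 and Slc22a19, in the direction of transcription. The coding sequences of Slc22a28 and Slc22a30 matched at 1636 of 1656 bases (98.8%), with 431 bases as the longest identical run. Slc22a27 was closest to Slc22a29, which is not analysed here, at 97.3%, and matched Slc22a28 at 91.7% of aligned bases.

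The similarity of Slc22a28 and Slc22a30 extends upstream of the gene, and these stretches are shown because the genes differed in how far apart the groups lay. The sequences are from RefSeq (GRCm38.p6, the assembly of mm10), read 5′ to 3′ on the minus strand, with the bases that differ between the genes in capitals. The Slc22a28 stretch is chr19:8131983-8132226, from 244 bases to 1 base upstream of its RefSeq start site, and the Slc22a30 stretch is chr19:8405112-8405355, from 250 to 7 bases upstream.
Slc22a28: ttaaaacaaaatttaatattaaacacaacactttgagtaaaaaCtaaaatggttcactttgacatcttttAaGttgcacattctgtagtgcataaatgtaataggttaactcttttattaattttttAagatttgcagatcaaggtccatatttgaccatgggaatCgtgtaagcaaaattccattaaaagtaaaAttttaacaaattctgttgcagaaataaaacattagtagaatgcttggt
Slc22a30: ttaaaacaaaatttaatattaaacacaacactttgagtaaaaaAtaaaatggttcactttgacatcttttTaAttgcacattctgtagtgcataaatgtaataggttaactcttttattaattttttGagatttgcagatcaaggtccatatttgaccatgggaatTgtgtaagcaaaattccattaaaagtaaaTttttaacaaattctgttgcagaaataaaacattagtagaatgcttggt
These stretches differed at 6 of 244 positions, with 0 gaps. Over the whole windows of 300 bases around the start sites, 288 of 294 aligned bases matched (98.0%), against 213 of 263 aligned bases, with 24 gap positions, between Slc22a28 and Slc22a29.

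Short reads cannot always be assigned to a single gene of this group. Of the distinct stretches of 50 bases in its annotated transcripts, Slc22a28 shared 53.9% with another gene, nearly all of them with Slc22a30 (53.3%). The share was 34.3% for Slc22a30, 29.9% for Slc22a27 (mainly with Slc22a29) and 26.3% for Slc22a5 (mainly with Slc22a21, also not analysed here). It was 0% for Slc22a7, Slc22a18 and Slc22a23. The sources used here give neither the read length nor the treatment of reads that fit several genes, so the levels of Slc22a27, Slc22a28, Slc22a30 and Slc22a5 are uncertain as values of single genes.

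**Figure D1:**
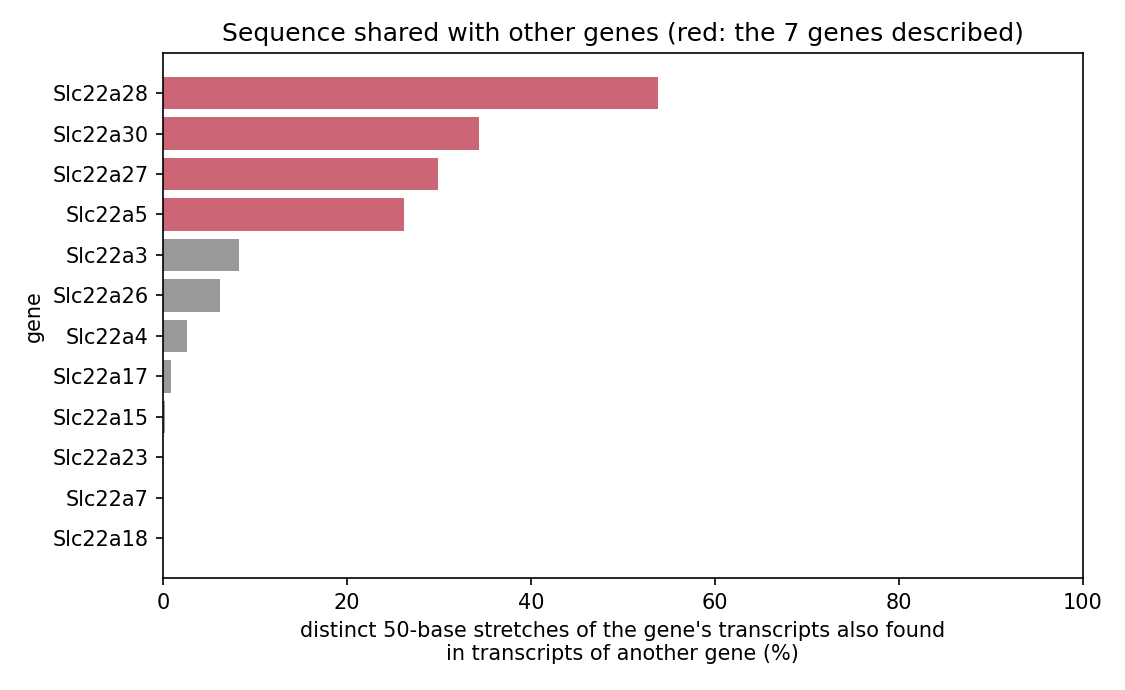
Percentage of the distinct 50-base stretches of the transcripts of 12 Slc22 genes (GENCODE M21) that also occur in transcripts of another gene; red bars are the 7 genes described and grey bars 5 others. Slc22a28 has the longest bar at 53.9%, and Slc22a7, Slc22a18 and Slc22a23 are at 0%.

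Per length, Slc22a18 and Slc22a30 were the most abundant of the 7 in both groups. Levels per length are mean CPM divided by the kilobases of all annotated exons of the gene. In WT, Slc22a18 stood at 36.4 ± 6.88 and Slc22a30 at 35.2 ± 5.22 CPM per kb (SD, n = 3), and their ranges overlapped. Slc22a7 followed at 9.29 ± 2.80, above Slc22a23 at 6.70 ± 0.69 and Slc22a5 at 5.71 ± 1.27 CPM per kb. The lowest WT value of Slc22a7, 7.60, lay above the highest of Slc22a23, 7.13, whose range overlapped that of Slc22a5 (4.47 to 7.02). Slc22a28 at 3.37 ± 0.73 and Slc22a27 at 1.18 ± 0.20 CPM per kb came last, each below the whole range of the gene before it. In ALAS1/2-KO the order of the first 3 members was Slc22a18 (40.9 ± 3.01), Slc22a30 (24.6 ± 4.58) and Slc22a7 (21.6 ± 7.48 CPM per kb, SD, n = 4), and the ranges of the last pair overlapped.

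Groups did not overlap for 3 of the 7 members. Slc22a27 and Slc22a28 were lower and Slc22a7 was higher in each of the 4 ALAS1/2-KO libraries than in the 3 WT ones, while Slc22a5, Slc22a18, Slc22a23 and Slc22a30 overlapped. Of all genes tested, 22.7% had no overlap between the groups. The limma fit over 12105 genes called 2 of the 7, Slc22a27 and Slc22a28, both lower, beside 5.1% of all genes (617, of which 352 were higher). Slc22a27 is past the threshold in 2 of the 7 fits without a library. Nothing is read from these counts, since the members were picked on this comparison. All 7 passed the filter of 1 CPM in 3 libraries, but Slc22a27 reached 1 CPM in WT libraries alone, so it had to stand higher there to be tested. Slc22a28 reached it in the 3 WT libraries and in 1 ALAS1/2-KO library, so it too passed only through its WT level. The median log2 difference of the 7 was 0.16, against -0.02 over all genes tested.

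**Figure D2:**
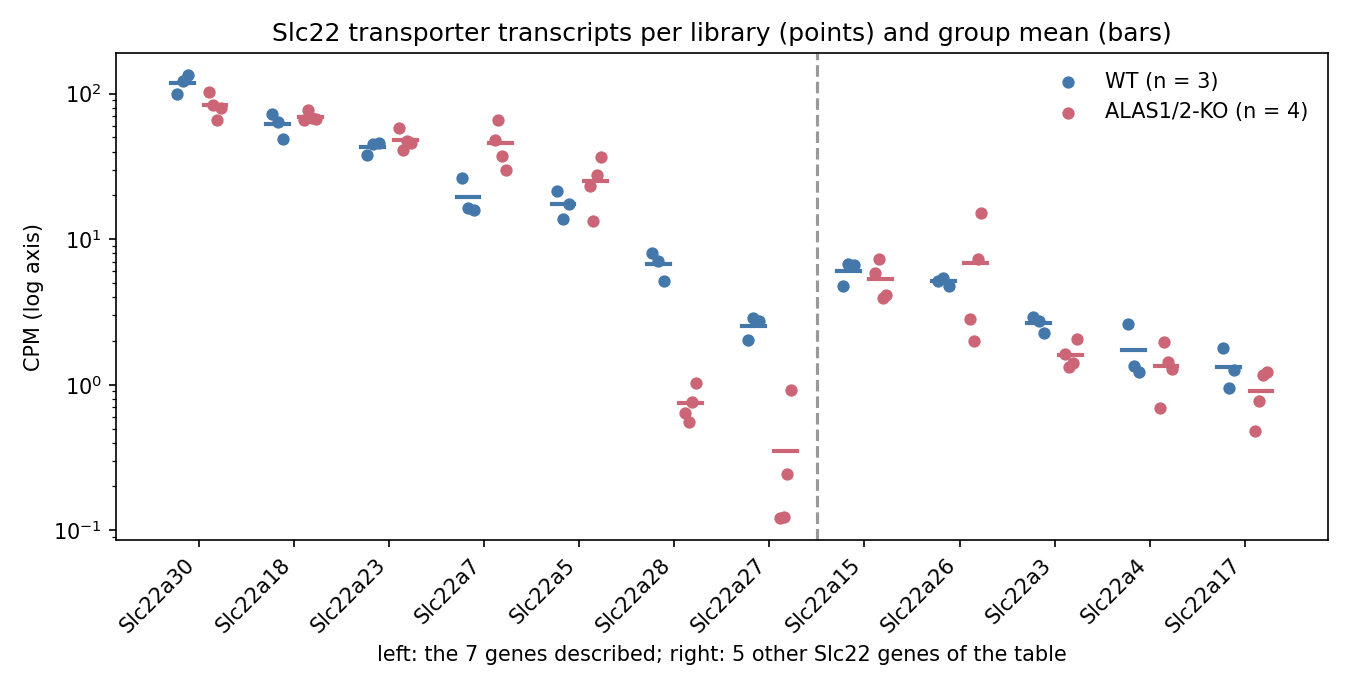
CPM (log axis) of 12 Slc22 genes in each library, with points for the 3 WT (blue) and 4 ALAS1/2-KO (red) libraries and bars for group means; the 7 genes described are left of the dashed line. Slc22a28 and Slc22a27 are the members whose red points lie far below the blue ones, and Slc22a7 has its red points, 30.1 to 66.3 CPM, above its blue ones.

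Slc22a28, whose substrates are little known, was one of the members that stood far lower in ALAS1/2-KO. It stood at 8.04, 7.07 and 5.15 CPM in WT replicates 1 to 3, and at 0.635, 0.554, 0.764 and 1.02 CPM in ALAS1/2-KO replicates 1 to 4. All ALAS1/2-KO values were far below the lowest WT value. In reads this was 154 to 178 per library in WT and 18 to 31 in ALAS1/2-KO. The log2 difference was -3.08 (SE 0.28), an 8.46-fold lower level. Its mean in ALAS1/2-KO, 0.744 ± 0.205 CPM, was small beside the 82.8 CPM of its near-copy Slc22a30, and how many of these reads came from Slc22a30 transcripts was not tested.

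Slc22a27 was the least abundant member. It stood at 2.04, 2.86 and 2.72 CPM in WT and at 0.121, 0.123, 0.244 and 0.924 CPM in ALAS1/2-KO replicates 1 to 4. These ALAS1/2-KO values rest on 4, 4, 8 and 28 reads, against 39 to 93 in WT. Replicate 4 lay well above the other ALAS1/2-KO libraries and below each WT library. The log2 difference was -2.99 (SE 0.60), or 7.94-fold lower, and was -3.53 without ALAS1/2-KO replicate 4 and -2.21 without replicates 1 and 2 together. On a log2(CPM + 1) scale, which shrinks low genes, the differences were -1.42 for Slc22a27 and -2.14 for Slc22a28.

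Slc22a30, the near-copy of Slc22a28 and the most abundant of the group, had overlapping groups. It stood at 99.3, 122 and 134 CPM in WT and at 103, 83.3, 65.7 and 79.2 CPM in ALAS1/2-KO. ALAS1/2-KO replicate 1 lay above WT replicate 1, and the other 3 ALAS1/2-KO libraries lay below all WT libraries. The log2 difference was -0.52 (SE 0.17), a 1.44-fold lower level. With CPM rescaled to the listed reads it was -0.19, but the median of all genes moved as well, from -0.02 to 0.32, so that relative to this median Slc22a30 hardly moved. Within a library, a ratio of both genes does not depend on library scaling. Slc22a28 amounted to 8.09%, 5.77% and 3.85% of Slc22a30 in WT and to 0.616%, 0.665%, 1.16% and 1.29% in ALAS1/2-KO.

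Slc22a26, the listed neighbour of Slc22a27 and no member, had overlapping groups with very different spreads, with means of 5.14 ± 0.32 CPM (WT, SD, n = 3) and 6.81 ± 5.97 CPM (ALAS1/2-KO, SD, n = 4). It stood at 5.17, 5.44 and 4.80 CPM in WT and at 2.84, 2.00, 7.36 and 15.04 CPM in ALAS1/2-KO. The SD of its log2 values in ALAS1/2-KO, 1.30, exceeded that of 98.9% of the genes tested, whereas in WT (0.09) it lay at the 18.1 percentile. Its log2 difference was -0.03 (SE 0.65, limma adjusted p = 0.984). Without ALAS1/2-KO replicates 1 and 2 together it turned to 1.03 and limma called it. Those were its lowest libraries and were left out after seeing the data, so the difference had to rise and nothing is read from the call.

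**Figure D3:**
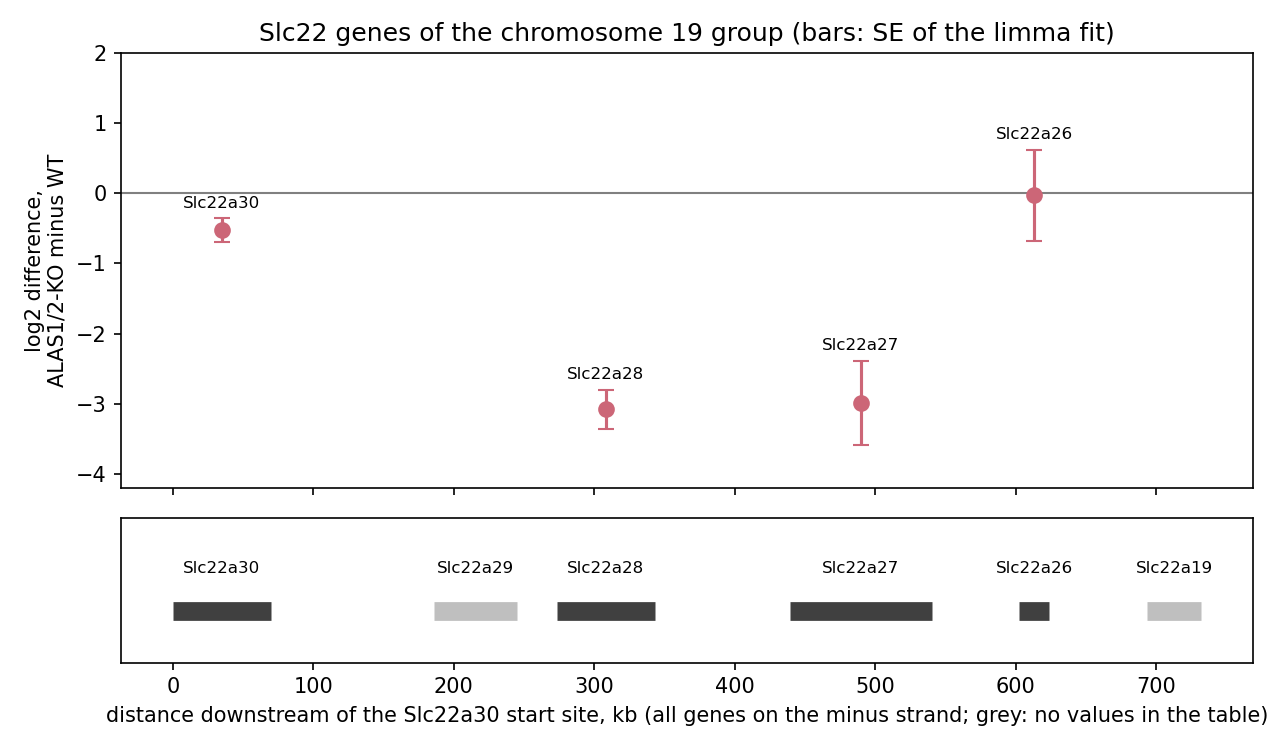
Log2 difference (ALAS1/2-KO minus WT, points, with the SE of the limma fit as bars) of the Slc22 genes on chromosome 19, placed by distance in kb downstream of the Slc22a30 start site, with gene bodies below (grey: no values in the table). Slc22a28 (-3.08) and Slc22a27 (-2.99) lie between Slc22a30 (-0.52) and Slc22a26 (-0.03).

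Slc22a7 encodes OAT2, a hepatocyte carrier of organic anions and nucleotides (ENSMUSG00000067144.7, chromosome 17, 46432183 to 46438457, minus strand). It stood at 26.3, 16.3 and 16.0 CPM in WT and at 47.7, 66.3, 37.6 and 30.1 CPM in ALAS1/2-KO replicates 1 to 4. ALAS1/2-KO replicate 4 and WT replicate 1 came closest to each other. The log2 difference was 1.19 (SE 0.29), or 2.29-fold higher, and ran from 0.99 to 1.43 when single libraries were left out.

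Slc22a5 encodes OCTN2, the sodium-dependent carnitine transporter (ENSMUSG00000018900.7, chromosome 11, 53864542 to 53891660, minus strand). Carnitine carries long-chain fatty acids into mitochondria, and mice without OCTN2 are carnitine-deficient. The gene stood at 21.6, 13.7 and 17.3 CPM in WT and at 23.2, 13.4, 27.6 and 36.9 CPM in ALAS1/2-KO replicates 1 to 4. ALAS1/2-KO replicate 2 was lower than each WT library and the other 3 were higher than each. The log2 difference was 0.46 (SE 0.33), and single libraries moved it both ways. It was 0.73 without ALAS1/2-KO replicate 2, 0.25 without ALAS1/2-KO replicate 4 and 0.29 without WT replicate 2. Without replicates 1 and 2 together, which had the lowest summed markers of other cell types, it was 0.88.

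Within ALAS1/2-KO, Slc22a5 and Slc22a7 went opposite ways from library to library. Replicate 2 had the lowest Slc22a5 and the highest Slc22a7, and replicate 4 the highest Slc22a5 and the lowest Slc22a7. The ratio of Slc22a5 to Slc22a7 was 0.487, 0.202, 0.734 and 1.23 in replicates 1 to 4, against 0.819, 0.844 and 1.09 in WT. Slc22a26, Slc22a27 and Slc22a28 were also highest in replicate 4 and, but for Slc22a27, lowest in replicate 2. The markers of other cell types given above also had lower sums in replicates 1 and 2. These were 287 and 778 CPM, against 1637 and 1442 CPM in replicates 3 and 4. Slc22a5, Slc22a26, Slc22a27 and Slc22a28 were lower in replicates 1 and 2 as well, while Slc22a7 and Slc22a30 were higher there. Slc22a30 stood at 103 and 83.3 CPM in replicates 1 and 2, against 65.7 and 79.2 CPM in replicates 3 and 4. Slc22a18 and Slc22a23 showed no such split. In these libraries the values of Slc22a28 rest on only 18 to 31 reads and those of Slc22a27 on 4 to 28. The part of other cell types in this pattern was not tested.

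**Figure D4:**
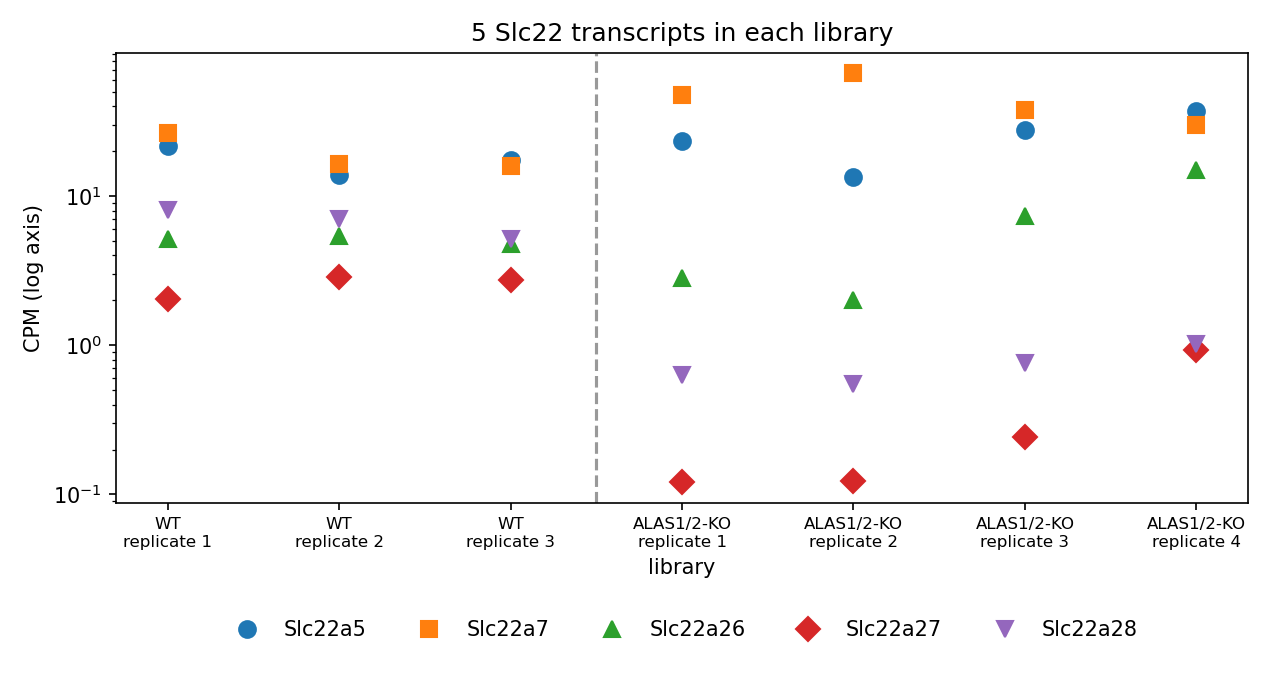
CPM (log axis) of Slc22a5, Slc22a7, Slc22a26, Slc22a27 and Slc22a28 in each of the 7 libraries, with WT left of the dashed line. In ALAS1/2-KO replicate 2 Slc22a7 (66.3 CPM) is far above Slc22a5 (13.4 CPM), and in replicate 4 Slc22a5 (36.9 CPM) is above Slc22a7 (30.1 CPM).

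Slc22a18 and Slc22a23, whose substrates are not settled, differed least. Slc22a18 lies in an imprinted domain of chromosome 7 (ENSMUSG00000000154.16, 143473736 to 143499334, plus strand). It stood at 72.1, 64.1 and 49.1 CPM in WT and at 66.0, 77.2, 67.8 and 67.3 CPM in ALAS1/2-KO. WT replicate 3 was the low library, and the log2 difference, 0.19 (SE 0.14), was 0.03 without it. Slc22a23 (ENSMUSG00000038267.15, chromosome 13, 34179158 to 34345182, minus strand) stood at 37.7, 45.2 and 45.5 CPM in WT and at 58.1, 41.1, 47.3 and 45.7 CPM in ALAS1/2-KO. Its log2 difference was 0.16 (SE 0.13), and ALAS1/2-KO replicate 1 was its highest library. It was 0.06 without that library and 0.07 without WT replicate 1. With CPM rescaled to the listed reads, and the median of all genes at 0.32, the differences were 0.52 and 0.49. Relative to that median they were about as small as before.

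Of the other Slc22 genes, limma called 0 of 6 (median log2 difference -0.35), beside 5.1% of all genes, and limma voom 0. An unadjusted limma p under 0.05 was found for 2 of the 6, against 2869 of all 12105 genes tested. Groups did not overlap for 2 of the 6, both lower (22.7% of all genes had no overlap). With so few genes, nothing is read from these counts. That the 6 were left out of the 7 was itself a choice made with these values known. Slc22a3, the cation transporter OCT3, stood at 2.64 and 1.61 CPM (log2 difference -0.70, limma adjusted p = 0.133). Its exons share 420 bases with those of Plg on the other strand, which is far more abundant (mean of 2113 CPM in WT, 1656 CPM in ALAS1/2-KO), and how reads were counted by strand is not given, so the level of Slc22a3 is uncertain. Slc22a4, a carnitine and zwitterion carrier of the OCTN branch, stood at 1.73 and 1.35 CPM, Slc22a15 at 6.03 and 5.29 CPM, and Slc22a17, the receptor of lipocalin 2, at 1.33 and 0.909 CPM (limma adjusted p = 0.642, 0.636 and 0.438).

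Limma called 0 of the 9 listed genes that make carnitine or use it for the shuttle of fatty acids, the pathway that Slc22a5 supplies. Beside 5.1% of all genes, nothing is read from a count of 0 among so few. Limma voom called 0, and 3 had an unadjusted limma p under 0.05, against 2869 of all 12105 genes tested. Groups did not overlap for 2 of the 9, both higher (22.7% of all genes had no overlap). Cpt1a, the gate of mitochondrial fatty acid entry, had means of 193 ± 24.4 and 303 ± 60.6 CPM (WT, then ALAS1/2-KO, log2 difference 0.63, limma adjusted p = 0.0854). Crot, the peroxisomal carnitine octanoyltransferase, stood at 279 and 274 CPM (limma adjusted p = 0.884). Their median log2 difference was 0.19. Leaving out ALAS1/2-KO replicate 2 gave a count of 2, and rescaling CPM to the listed reads gave 4.

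Among other hepatocyte carriers of organic ions, bile acids and sterols, 8 of 27 rose and 1 fell (33.3% called, beside 5.1% of all genes). Groups did not overlap for 9 that were higher and 5 that were lower (22.7% of all genes had no overlap). The list was chosen with earlier results of these data known, so nothing is read from its share. Slc10a1, the bile acid uptake carrier NTCP, had means of 341 ± 30.1 CPM in the WT and 586 ± 33.2 CPM in the ALAS1/2-KO libraries, a 1.72-fold rise (limma adjusted p = 0.0076). Abcc2, the export pump of conjugates into bile, rose 1.64-fold (limma adjusted p = 0.00979). Slc47a1, the cation exporter MATE1, rose 1.52-fold (limma adjusted p = 0.0176), and Abcg8, a sterol exporter subunit, 1.4-fold (limma adjusted p = 0.0281). The median log2 difference of the list was 0.16, as against -0.02 for all genes tested. Without WT replicate 2, 0 of the 27 were called, and Slc10a1, Abcc2 and Slc47a1 had a limma adjusted p of 0.0533, 0.0713 and 0.108. Abcg8 held its call in 1 of the 7 fits without a library.

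Of 24 regulators of transporter genes, 4 rose and 2 fell (25% called, beside 5.1% of all genes), with a median log2 difference of 0.07. This list, too, was chosen with earlier results known. Stat5a, which relays growth hormone signals, fell 2.75-fold, with means of 27.4 ± 7.96 CPM and 9.65 ± 0.45 CPM (limma adjusted p = 0.00461) and was called in all 7 fits without a library. Esr1, the estrogen receptor, rose 1.92-fold, Ppara, the fatty acid receptor, 1.6-fold, and Nfe2l2, which encodes NRF2, 1.42-fold (limma adjusted p = 0.0171, 0.0269 and 0.0344). Without WT replicate 2 these 3 lost the call, at a limma adjusted p of 0.101, 0.12 and 0.108. Ppara also lost it without WT replicate 1 or ALAS1/2-KO replicate 4, and Nfe2l2 held in 2 of the 7 fits.

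Genes with a known sex bias in liver, a trait of several rodent Slc22 genes, were called in both directions. These lists were also chosen with earlier results known. Of 16 male-biased genes 1 rose and 4 fell (31.25% called, beside 5.1% of all genes, median log2 difference -0.22). Hsd3b5, a steroid dehydrogenase, fell 13.6-fold, C6, a complement factor, 2.31-fold, and Mup3, a urinary protein, 1.82-fold, whereas Cyp4a12b, a fatty acid hydroxylase, rose 10.6-fold (limma adjusted p = 0.0284, 0.0101, 0.0137 and 0.00641). Of 11 female-biased genes 1 rose and 2 fell (27.3% called, median 0.53). Cyp17a1, a steroid hydroxylase, fell 5.72-fold, Cyp3a44 8.74-fold, and Hamp2, a hepcidin gene, rose 3.48-fold (limma adjusted p = 0.000105, 0.019 and 0.0218). Cyp3a44 stood at only 0.185 to 0.695 CPM in ALAS1/2-KO and passed the filter through WT libraries alone, so it had to stand higher there to be tested. Without WT replicate 2 the counts were 1 and 2, with Cyp4a12b, Cyp17a1 and Cyp3a44 still called and Hsd3b5 at a limma adjusted p of 0.128, C6 at 0.0704, Mup3 at 0.0753 and Hamp2 at 0.118. Cyp3a44 lost its call without WT replicate 1 (limma adjusted p = 0.0662) and also without WT replicate 3, Hamp2 also without WT replicate 1 or ALAS1/2-KO replicate 4, and Hsd3b5 held in 2 of the 7 fits.

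Of 79 tested genes within 500 kb of a member and outside the family, 0 rose and 2 fell (2.53%, against 5.1% of all genes, with a median log2 difference of -0.06). Whether these shares differ was not tested. The 2 that fell were Mrps18a, a mitochondrial ribosomal protein gene 303 kb from Slc22a7 (29.3 to 18.7 CPM, limma adjusted p = 0.0347), and Tssc4, 403 kb from Slc22a18 (9.89 to 6.86 CPM, limma adjusted p = 0.0377). With CPM rescaled to the listed reads 11 genes near the members were called, 11 higher and 0 lower. Mrps18a held in 3 and Tssc4 in 1 of the 7 fits without a library. The nearest tested genes around Slc22a7, Ttbk1 and Zfp318, stood at 0.831 and 17.9 CPM in WT and at 1.14 and 17.6 CPM in ALAS1/2-KO. Irf1, beside Slc22a5, stood at 26.6 and 19.9 CPM, and Pdlim4, on its other side, at 1.91 and 1.23 CPM. Nap1l4 and Kcnq1ot1, around Slc22a18, stood at 19.7 and 18.9 CPM and at 3.56 and 4.75 CPM, and Psmg4 and Pxdc1, around Slc22a23, at 3.35 and 3.57 CPM and at 22.8 and 16.6 CPM. At the edges of the chromosome 19 group, Gm16437 stood at 2.34 and 1.99 CPM and Slc3a2, the heavy chain of amino acid transporters, at 60.1 and 48.8 CPM. None of these 10 passed (limma adjusted p from 0.109 for Pxdc1 to 0.942 for Zfp318).

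Profiles most like those of Slc22a28, Slc22a27 and Slc22a7 were sought over the 7 libraries, as the smallest root mean square difference of log2 values centred on each gene's mean, among genes with at least 5 CPM in the higher group. For Slc22a28 these were Tsen54, a tRNA splicing subunit (0.324), Ugt2b1, a glucuronosyltransferase (0.366), and Cyp17a1 (0.39). For Slc22a27 they were Slc22a28 (0.592), Ugt2b1 (0.696) and Tsen54 (0.729). For Slc22a7 they were Adssl1, a purine synthesis enzyme (0.193), Tert, the telomerase subunit (0.202), and Car14, a carbonic anhydrase (0.214). Ugt2b1 had means of 350.2 ± 20.7 CPM in the WT and 40.9 ± 14.5 CPM in the ALAS1/2-KO libraries, and Car14 means of 34.8 and 76.8 CPM. The measure mostly follows the difference between the groups, by which the members were picked.

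Promoter windows of 300 bases were found in RefSeq for 11 of the 13 Slc22 genes, 6 of them members. The letters CAAAGTCCA, a core of HNF4 sites, were searched on both strands and were in none of the 11 windows, against 0.475% of all 32851 promoter windows. The letters TTCNNNGAA, the STAT core, which reads the same on both strands, were in the windows of Slc22a15 and Slc22a26 and in those of 0 members, against 8.3% of all. A match is not a site, and these letters can lie elsewhere. At such low shares, nothing is read from their absence in so few windows.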

How the data were processed

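Libraries were made with a TruSeq RNA kit (version 2) from 1 µg of Trizol-extracted RNA, per the labels' protocols. Per the submitters' processing notes, reads were handled with cutadapt and HISAT2 on mm10. Counter, annotation and strand handling: not given in the sources used here. The authors deposited log2 CPM values with a small prior, in 1 column per sample. 2 to the power of each value, less a floor of 0.0676 CPM, was a whole multiple of 1 step per column for 100% of values under a tolerance of 0.01 reads, which gave the reads. CPM are given with that floor taken off, and folds and log2 differences include it, which understates changes of low genes.

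The limma test (limma 3.58.1, R 4.3.3, trend and robust moderation, Benjamini-Hochberg adjustment) was run on the 12105 genes that reached 1 CPM in 3 or more libraries. An adjusted p under 0.05 was a call. The procedure was tested on simulated data. Members, lists and named genes were chosen with earlier results of these data known. The rule names the Slc22 genes (1 of them is not reported here), up to 4 called genes per list by p (or the 2 most abundant), the nearest and called genes within 500 kb, the 3 closest profiles of the 3 members with the widest difference, and Alas1 and Alas2. Positions, exon lengths and transcripts came from GENCODE M21, which matched 11938 symbols to a single gene.

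Replicate numbers were not taken as pairs. Alternatives were log2(CPM + 1), other filters, other scalings, quantile normalization, limma voom on recovered reads, limma without moderation options, a replicate block and leaving out libraries. Leaving out ALAS1/2-KO replicates 1 and 2 together was chosen after seeing the data.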

Additional observations from a re-analysis of the deposited data

Results flagged for a closer look

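Among the 49 genes named, 1 had a library set apart from the other ALAS1/2-KO libraries by Dixon's test at its 95% critical value. Chance sets apart a library in about 1 in 20 groups. Tsen54 stood at 2.39 log2 CPM (5.18 CPM) in ALAS1/2-KO replicate 4, and at 3.81 to 3.85 CPM in the other 3. None of the 7 members was set apart in this way.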

How the results depend on the processing

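The members kept the sign of their log2 difference in the alternatives that gave them a value, and Slc22a27 has none under the filter of 5 CPM, which it did not pass. The order of Slc22a27 and Slc22a28 turned with limma voom, with the replicate block and without ALAS1/2-KO replicate 4 or WT replicate 1. Counts of calls were less stable. With CPM rescaled to listed reads, limma called 2735 genes over all genes tested (92.6% of them higher, against 57.1%), 4 carnitine genes, 15 transporters, 10 regulators, 6 female-biased genes and 11 genes near the members. When the 20 most abundant genes and mitochondrial ones were kept out of the scaling, 42.3% of 562 calls were higher. Limma without trend and robust moderation called 355 genes, 4 transporters, 2 regulators and 1 gene near the members, and quantile normalization 1 gene near the members. With a replicate block, in which ALAS1/2-KO replicate 4 has no partner and drops out, limma called 72 genes, 0 transporters, 0 regulators, 1 male-biased gene, 1 female-biased gene and 0 genes near the members. Same-numbered libraries did not deviate together (correlations of -0.03, 0.05 and 0.18), so the numbers are not read as pairs. Leaving out single libraries gave 100 to 802 calls over all genes, 0 to 2 carnitine genes, 0 to 12 transporters, 2 to 7 regulators, 1 to 7 male-biased genes, 1 to 4 female-biased genes and 0 to 3 genes near the members, with the lowest total without WT replicate 2 and the highest without ALAS1/2-KO replicate 1. Without ALAS1/2-KO replicates 1 and 2 together, limma called 1130 genes, 2 carnitine genes, 8 male-biased and 5 female-biased genes, 5 near the members and 1 other Slc22 gene. That gene was Slc22a26, whose log2 difference turned from -0.03 to 1.03, and the libraries left out were its lowest. The cause of these shifts was not tested. Depth limits Slc22a27 most, at 4 to 28 reads in ALAS1/2-KO.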
